A study of Mus musculus with 10 samples.

Results

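Luminal cells, the inner layer of the mammary ducts, were described from the 5 libraries that carry the cell type label luminal, of 10 libraries in all. The other 5 libraries hold basal cells, the outer contractile layer, and serve here for comparison. Both groups came from wild type C57BL/6J mice whose gland was in the virgin state, and no treatment, transgene or deletion separated them. After dissociation with collagenase, hyaluronidase, trypsin and dispase, cells were sorted by flow cytometry on EpCAM and CD49f, and transcripts were measured by bulk RNA sequencing. Each of the 10 titles states the other of the 2 cell types, and the groups here follow the cell type label and the source name. Same-numbered luminal and basal libraries share a number in their descriptions, but the labels neither call it an animal nor give an age, so the p-values measure the spread between these samples. In bulk RNA, fewer cells of a type and less RNA per cell cannot be told apart.

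The luminal layer of a virgin gland holds progenitor cells, which respond to prolactin during pregnancy and form milk-secreting alveoli, and hormone-sensing cells, which carry the oestrogen and progesterone receptors and signal to their neighbours. A luminal sort pools both, so genes of either kind can move with the mix of cells. The gland also changes with the oestrous cycle, in which progesterone induces genes of paracrine signalling in receptor-bearing cells.

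Luminal libraries held 13203146 to 17565471 counts and 16861 to 17842 genes with a count. Levels are given as CPM, the usual depth-scaled count, on the library total scaled by TMM, a factor that sets most genes equal between libraries. At that depth 13760 genes reached a mean of 1 CPM, 9803 reached 10 CPM, 2046 reached 100 CPM and 92 reached 1000 CPM. The libraries also differed in how their levels moved with transcript length. In luminal replicates 1 to 5, the 212 genes with under 1 kb of exon lay at a median of -0.39, 0.15, -0.19, 0.44 and -0.03 from their own luminal mean on the log2(CPM + 1) scale. Luminal replicate 4 therefore stood highest and luminal replicate 1 lowest for short transcripts. Ribosomal protein genes (86 in the table) took 7.39% of the counts of luminal replicate 4 and 3.61% to 6.07% of the others. The part of this difference in the results below was not tested, except where an offset for length is named.

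All 6 marker genes of the population were counted in every luminal library. Krt18 and Krt8 encode the paired keratins of simple epithelia. Krt18 (chr15:102028216-102032026, GRCm38) stood at 3438, 3808, 2916, 4239 and 4567 CPM in luminal replicates 1 to 5. Its mean was 3794 ± 651 CPM (SD, n = 5) against 540 ± 119 in basal libraries. Krt8 (chr15:101996711-102004342) stood at 2207, 2503, 1684, 2612 and 2713 CPM. Neither keratin overlapped its basal range, and the differences were 2.81 ± 0.21 and 2.20 ± 0.18 on the log2 scale (SE, edgeR adjusted p = 3.12e-08 and 1.13e-07). Epcam (chr17:87635979-87651127), whose protein was used in the sort, stood at 2159, 1391, 1498, 1706 and 2171 CPM. Prlr (chr15:10177238-10349190), the prolactin receptor, stood at 1164, 913, 958, 1324 and 1585 CPM, with a basal mean of 0.99 CPM.

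The 2 progenitor markers of that set were lower and more uneven. Kit (chr5:75574987-75656722), a receptor tyrosine kinase, stood at 288, 148, 129, 137 and 208 CPM. Elf5 (chr2:103412098-103450989), an ETS factor of the alveolar lineage, stood at 127, 89.5, 66.6, 55.6 and 121 CPM. Luminal replicates 1 and 5 were the highest pair for both. Against basal libraries the log2 differences were 7.27 ± 0.31 for Kit and 9.02 ± 0.46 for Elf5 (SE, edgeR adjusted p = 2.28e-10 and 1.08e-09). The 7 basal markers were lower in all luminal libraries (7 of 7, median log2 difference -7.75), where 31.2% of all 14609 genes tested were lower. Their summed level was 40.7, 53.2, 43.4, 92.9 and 118 CPM in luminal replicates 1 to 5 and 12739 to 17543 CPM in basal libraries. The highest luminal sum was 0.76% of the basal mean.

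Markers of other cells were uncounted for some genes and present for others. Cd3e, Cd79a and Adipoq had no count in any luminal library, and Ptprc, the pan-leukocyte gene, reached at most 0.38 CPM. The summed endothelial markers (5 in the table) lay at 1.58 to 4.06 CPM, the 9 leukocyte markers at 14.5 to 20.5 CPM, the 5 adipocyte markers at 0.61 to 2.26 CPM, and the 2 nerve and 2 muscle markers at 1.19 to 7.24 and 1.83 to 4.10 CPM. The 3 blood markers in the table summed to 4.73 to 18.3 CPM, most of it Hba-a1. The 6 fibroblast markers summed to 117, 38.7, 60.9, 27.9 and 60.5 CPM, and the matrix proteoglycan gene Dcn made up 95 CPM of the first value. Of the tested markers, 1 of 2 blood markers, 2 of 3 leukocyte markers (Cd52 and Lyz2) and 1 of 6 fibroblast markers (Dcn) were higher than in basal libraries, where 33.6% of all 14609 genes tested were higher and 31.2% lower. The leukocyte marker Csf1r, the fibroblast marker Pdgfra, 2 of 3 endothelial markers (Cdh5 and Esam), the adipocyte marker Fabp4 and the muscle marker Acta1 were lower.

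The most abundant genes by CPM were of several kinds. Eef1a1, the translation elongation factor that brings tRNA to the ribosome, ranked 1 at 8430 ± 1334 CPM (SD, n = 5). Eef2, the translocation factor, ranked 3 at 5041 CPM, and Galnt2, which starts mucin-type O-glycosylation, ranked 4 at 4475 CPM. Cd164, a sialomucin of the cell surface, followed at 4281 ± 897 CPM, with a basal mean of 263 CPM. A gene listed without a symbol (Entrez 100861531) held rank 2 only through luminal replicate 4. Its levels were 3244, 2868, 1692, 24789 and 3254 CPM. Gm15441 and Txnip had nearly equal levels (4205 and 4202 CPM), and their spans overlap, so their reads cannot be told apart here. Txnip encodes a thioredoxin-binding protein. The span of Vmp1, at 3281 CPM, overlaps that of Mir21a.

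Only part of the list was shared by all luminal libraries, and ranks moved between them. Eef2, for example, ranked 3, 2, 4, 12 and 2 in luminal replicates 1 to 5. Of the 20 most abundant genes by CPM, 9 were among the first 20 of each luminal library: Cd164, Cldn4, Eef1a1, Eef2, Galnt2, Gm15441, Hsp90ab1, Krt18 and Txnip. Gpx3, a secreted glutathione peroxidase, ranked 12 by its mean of 3242 CPM, but its levels were 6811, 1841, 2451, 2519 and 2588 CPM. Luminal replicate 1 was thus far above the rest, while the basal mean was 5.69 CPM. Slc12a2, a sodium, potassium and chloride cotransporter, ranked 16 at 2634 ± 696 CPM (SD, n = 5) against 36.3 CPM in basal libraries. Of these 20 genes, 15 were higher and 2 lower in luminal than in basal libraries, where 33.6% of the 14609 genes tested were called higher and 31.2% lower at an adjusted p under 0.05 (edgeR). Choosing genes by their luminal level favours higher calls, so nothing is read from these counts. Hspa5, the chaperone of the endoplasmic reticulum, was among the lower genes at 2460 CPM in luminal and 12032 CPM in basal libraries.

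Counts grow with transcript length, so levels of different genes were compared per kilobase of exon. On that scale 11 of the 20 genes stayed in the list, and ribosomal protein genes rose from 2 to 7 of 20. Rplp1, of the ribosomal stalk, ranked 1 at 3807 CPM per kb, Eef1a1 ranked 2 at 3381 CPM per kb, and Krt18 ranked 3 at 2640 ± 453 CPM per kb (SD, n = 5). Krt8 ranked 18, Epcam 34, Prlr 553, Kit 2370 and Elf5 3066 among the 12992 genes with a length and a mean of at least 1 CPM. The barrier gene Cldn4, a tight-junction protein, and the small heat shock gene Hspb1 were among the first 7 at 1878 and 2331 CPM per kb. Ly6d, a surface protein anchored by a lipid, entered the list at 1700 CPM per kb with a basal mean of 8.30 CPM. Of the 20 genes per kilobase, 19 were higher and none was lower than in basal libraries (33.6% and 31.2% of all genes tested), which the choice by luminal level again favours. Genes of the list were uneven to different degrees. Rpl41, with 1.17 kb of exon, stood at 1273, 3043, 1834, 5636 and 1801 CPM. The shorter Rpl37rt, with 0.752 kb, stood at 546, 987, 656, 1000 and 780 CPM.

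**Figure D1:**
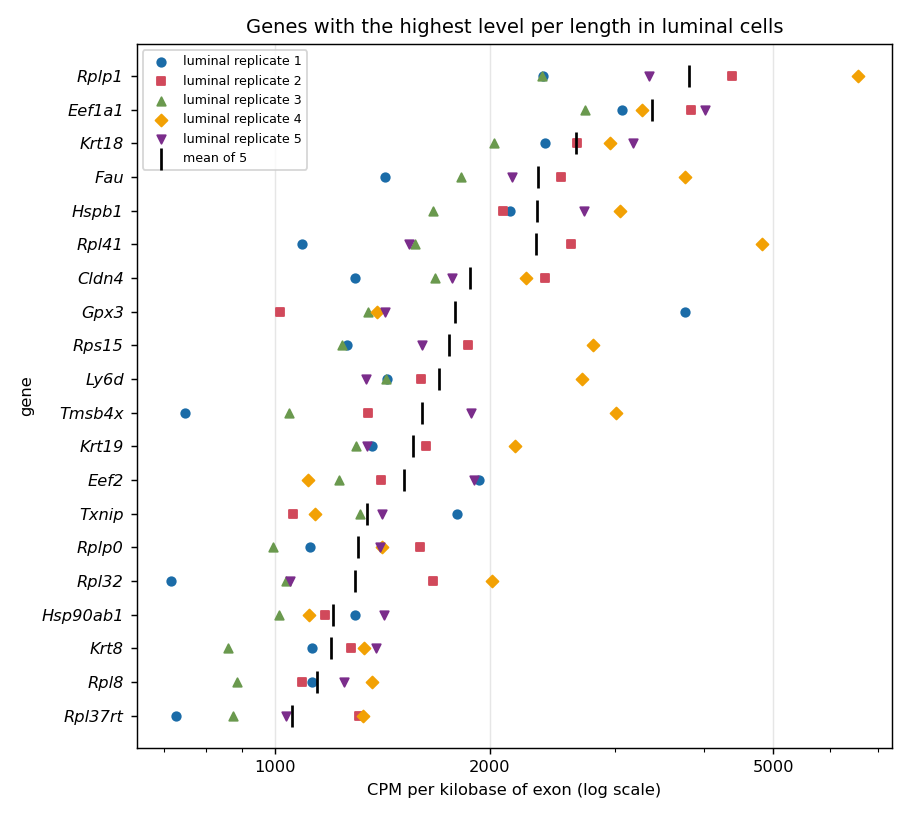
Level of the 20 genes with the highest mean CPM per kilobase of exon in luminal cells (log axis, one symbol per luminal library, bar at the mean of 5). Luminal replicate 4 is the highest library for Rplp1, Rpl41, Ly6d and Tmsb4x, while Gpx3 is highest in luminal replicate 1.

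The share of counts held by the most counted genes was compared with basal cells. In luminal replicates 1 to 5, the first 20 genes by count held 8.44%, 7.82%, 7.01%, 10.5% and 8.18% of the counts. The mean was 8.40% ± 1.32 (SD, n = 5) against 9.99% ± 0.452 in basal libraries (exact permutation test, two-sided p = 0.0476, smallest possible 0.00794). Luminal replicate 4 lay above every basal library and the other 4 lay below every one. Without luminal replicate 4 the luminal mean was 7.86% (p = 0.00794), and without any one of luminal replicates 1, 2, 3 or 5 the exact permutation p was 0.0873. For the first 50 genes it was 0.135, so the difference depended on the limit and on single libraries. The single most counted gene of luminal replicate 4 was the one without a symbol (Entrez 100861531). It took 2.46% of the counts of that library, where the most counted gene of each other luminal library took 0.792% to 1.04%. The comparison without this gene is not given here.

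Few genes seen in luminal cells were practically uncounted in basal cells. Of the 13760 genes with a luminal mean of at least 1 CPM, 181 (1.32%) had 3 counts or fewer in each basal library, and 51 of these had no basal count at all. As 3 counts equal 0.198 CPM on average in a basal library, and as the limit itself chose them, the difference from basal cells is not a finding. Most were modest in level: 56 reached 5 CPM, 33 reached 10 CPM and 2 reached 100 CPM. Of the 181, 143 are protein coding and 36 are long non-coding RNAs. At least 10 counts in each luminal library were reached by 122, while 12 had no count in at least 1 luminal library. Together they held 1523 CPM. Just inside the limit, with 3 counts in a basal library, were Rasef at 114 CPM, Slc44a4 at 53.3 CPM and Snorc at 47.8 CPM, and just outside it, with 4 counts, were Slc5a5 at 271 CPM, Fgb at 76.9 CPM and Smim22 at 39.9 CPM.

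The highest of these genes are described singly. Ido1 (chr8:24584133-24596952), which degrades tryptophan to kynurenine, stood at 136, 164, 75.2, 130 and 184 CPM in luminal replicates 1 to 5. Rasef, a Rab-type GTPase, stood at 125, 66.2, 89.3, 105 and 186 CPM. All 5 libraries carried both genes well above the limit, and their highest library was less than 3 times their lowest. Clca1, a secreted metalloprotease of mucus and chloride handling, stood at 105, 186, 63.6, 43.8 and 75.4 CPM, highest in luminal replicate 2. Calca, the gene of calcitonin and its related peptide, stood at 59.3, 18.1, 49.7, 115 and 104.1 CPM, lowest in luminal replicate 2.

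Genes of junctions and transport were also among the 25 highest. Cldn8 and Cldn6, of tight junctions, had means of 34.8 and 26.9 CPM. Slc44a4, a transporter of the choline transporter family, stood at 75.3, 49.1, 45.8, 53.4 and 43.1 CPM. Abcc8, the sulphonylurea receptor of potassium channels, had a mean of 34.5 CPM, and Slc5a7, a choline transporter, one of 15.7 CPM. Foxi1, a forkhead factor of ion-transporting cells, stood at 58.5, 18.4, 29.3, 18.6 and 31.9 CPM. Upk2, a uroplakin, stood at 13.4, 45.1, 11.8, 24 and 37.0 CPM, so its highest library was not that of Foxi1.

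Some of them were nearly missing from a luminal library as well. Ptpn5, a tyrosine phosphatase, stood at 130, 2.74, 27.5, 53.1 and 76.3 CPM. Aoc1 (chr6:48895255-48909188), a diamine oxidase that breaks down histamine, stood at 67.3, 0.421, 10.5, 13.0 and 23.8 CPM. Alox15, a lipoxygenase, stood at 29.1, 2.89, 6.68, 17.7 and 25.2 CPM. In all 3, luminal replicate 1 was highest, luminal replicate 5 followed and luminal replicate 2 was lowest. Of the 53 of these genes that could be ranked by variation at 5 CPM or more, 14 (26.4%) passed the limit for variable genes described next, which 2.94% of all ranked genes passed.

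**Figure D2:**
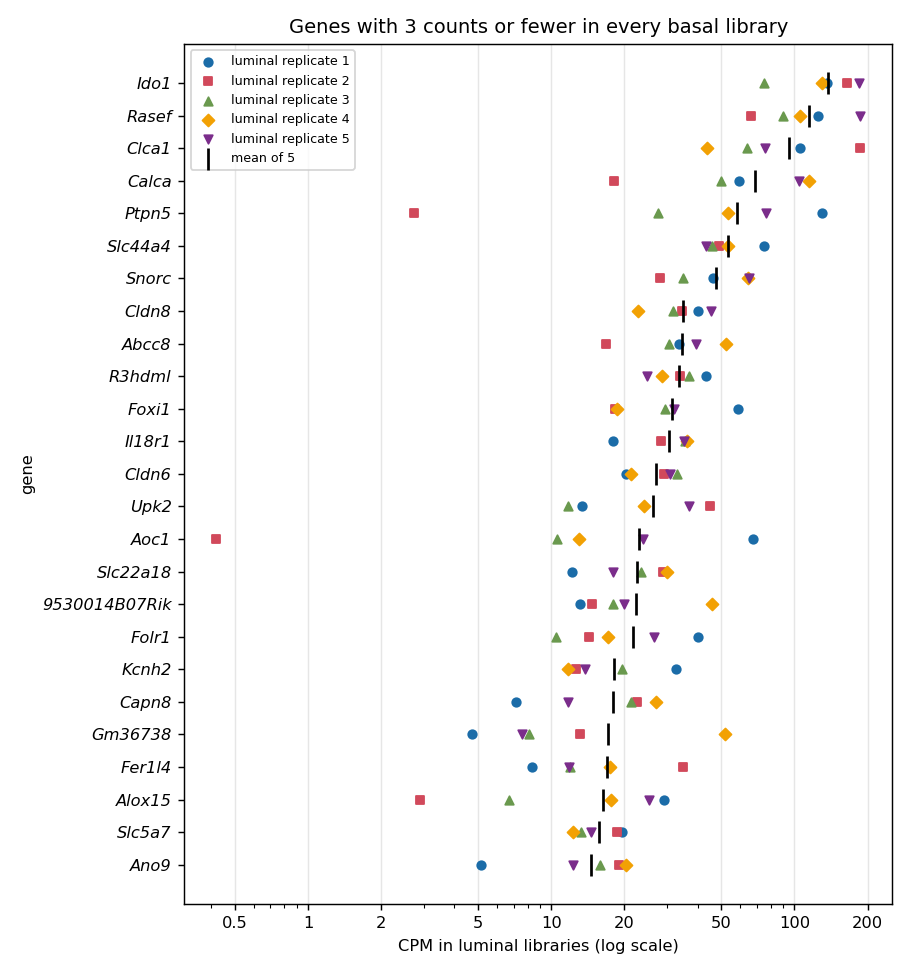
Level in CPM (log axis) in each luminal library of the 25 genes with the highest luminal mean among those with 3 counts or fewer in every basal library, with the bar at the mean of 5. The values of Slc5a7, Cldn6 and Slc44a4 lie close together across libraries, whereas Ptpn5, Aoc1 and Alox15 fall far lower in luminal replicate 2.

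Variation among the 5 luminal libraries was measured as the dispersion of each gene, the spread of its counts beyond counting error, divided by the trend of dispersion at its level. The trend corresponded to a coefficient of variation of 0.230 to 0.365. Of 11254 ranked genes with a mean of at least 5 CPM, 331 (2.94%) had at least 4 times the trend, while the median gene was at 0.621. Phpt1 and 4930578N18Rik lay just inside that limit at a ratio of 4.01, and Alpk1 and Synm just outside it at 3.996 and 3.989. Since the same counts chose these genes, their variation is a description without a test. Of the 331, 278 are protein coding and 92 overlap another gene. Against basal cells 190 were higher and 43 lower (33.6% and 31.2% of all genes tested), and the minimum of 5 CPM in luminal cells favours higher calls. In basal cells 263 of the 331 were ranked too, and 46 of them reached 4 times the trend there, as did 271 of all 11034 ranked basal genes (2.46%).

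The 30 most variable genes did not share 1 pattern. Luminal replicate 1 was the highest library for some. Ptpn5 led the list at 21.7 times the trend, followed by Col6a3, a collagen VI chain, at 76.5, 1.37, 14.5, 12.2 and 16.1 CPM. Tmem86a, a lysoplasmalogenase, stood at 357, 10.9, 41.2, 80.5 and 120 CPM. Both resembled Ptpn5 in having luminal replicate 1 highest and luminal replicate 2 lowest. Ggta1, a galactosyltransferase, had the same ends at 40.9, 2.52, 9.43, 4.73 and 19.5 CPM.

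Others went in other directions. Itih2, a heavy chain of the inter-alpha-trypsin inhibitor, stood at 4.06, 82.1, 23.2, 19.4 and 11.5 CPM. It was highest in luminal replicate 2 and lowest in luminal replicate 1. Dmbt1, a secreted scavenger glycoprotein of mucosal defence, stood at 202, 176, 134, 546 and 1369 CPM, high in luminal replicate 5. Cdcp3 stood at 402, 27.4, 192, 21.1 and 76.5 CPM, and Dcn, or decorin, at 95, 18.7, 39.4, 11.6 and 26.6 CPM. Both ran from luminal replicate 1 over 3, 5 and 2 to 4.

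The largest share of the 30 was high in luminal replicate 4. Lars2, the mitochondrial leucyl-tRNA synthetase, stood at 275, 170, 102, 1315 and 277 CPM. Gnb1l, a WD-repeat gene, stood at 88.3, 65.1, 42.7, 720 and 89.4 CPM. Both had the same order of libraries as the gene without a symbol (Entrez 100861531). Filip1l stood at 505, 267, 174, 2152 and 467 CPM, and it overlaps Cmss1, which had nearly equal levels. In each of them luminal replicate 4 was at least 4 times the next library and luminal replicate 3 was the lowest. Saa3, an acute-phase serum amyloid, was also highest there, at 1.00, 2.79, 7.6, 36.4 and 3.23 CPM, but with luminal replicate 1 lowest. Without luminal replicate 4, 371 genes passed the limit, 200 of them among the 331, and 20 of the 30 most variable genes still passed. Whether the reads counted for genes high in luminal replicate 4 came from their own transcripts was not tested.

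**Figure D3:**
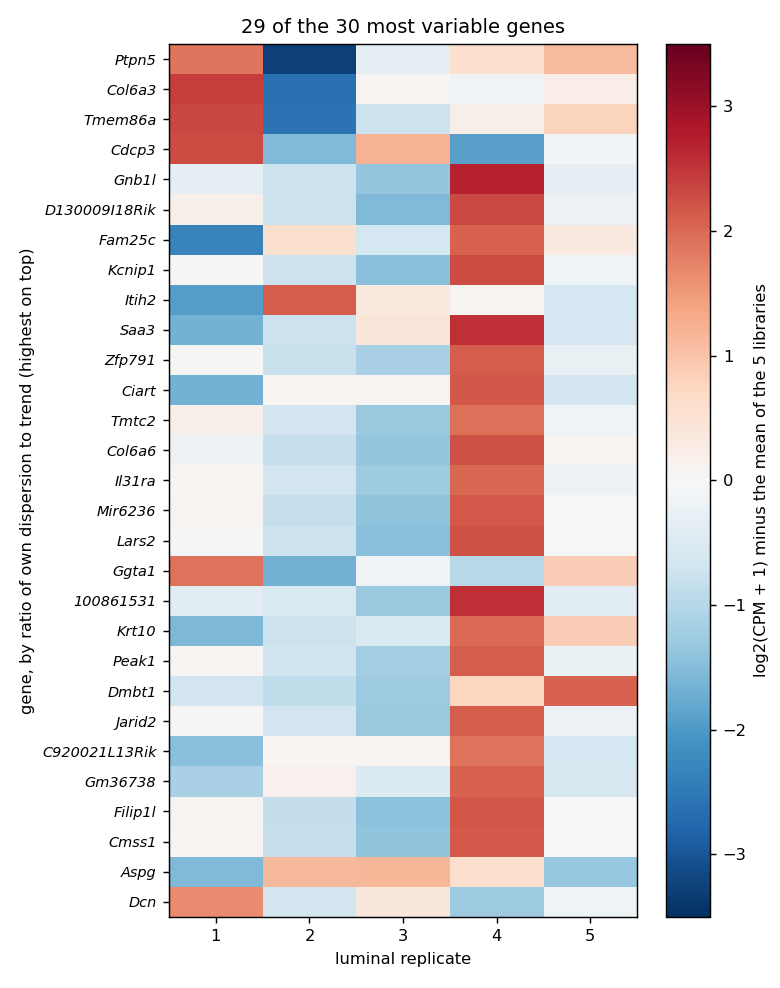
Deviation of 29 of the 30 most variable genes in each luminal library from the mean of the 5, as log2(CPM + 1), with red above and blue below the mean. One block of genes is red in luminal replicate 4 (such as Lars2 and Filip1l), and another is red in luminal replicate 1 and blue in luminal replicate 2 (Ptpn5, Col6a3, Tmem86a and Ggta1).

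Which library stood apart was counted for each gene, as the library farthest from the median of the other 4 on the log2(CPM + 1) scale. Luminal replicate 4 was the high one for 126 of the 331 variable genes (38.1%) and for 16.1% of all 11254 ranked genes. It was the low one for 25 variable genes (7.55%) and for 20.1% of all genes. Luminal replicate 1 was high for 42 (12.7%, all genes 12.1%) and low for 32 (9.67%, all genes 10.2%). Luminal replicate 5 was low for 33 (9.97%, all genes 8.23%), and luminal replicate 2 was low for 32 (9.67%, all genes 8.12%). Luminal replicate 2 was high for 20 (6.04%, all genes 6.93%), and luminal replicate 5 was high for 12 (3.63%, all genes 7.37%). Luminal replicate 3 stood apart for only 9, high for 4 (1.21%, all genes 4.98%) and low for 5 (1.51%, all genes 5.94%). Of the 126 genes high in luminal replicate 4, 88 (69.8%) were also highest in the basal library with the number 4, as were 57.0% of all genes high in luminal replicate 4. Numbers 1 and 5 did not show this for high genes. Of the 42 genes high in luminal replicate 1, 3 (7.14%) were highest in the basal library with that number (all genes 17.02%), and of the 12 high in luminal replicate 5 it was 0 (all genes 11.9%). The cause was not tested.

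**Figure D4:**
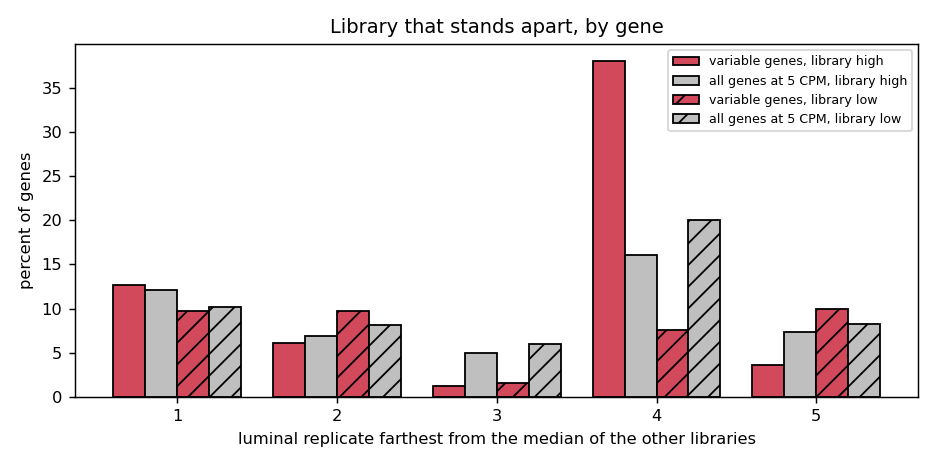
Percent of genes for which each luminal library was the farthest from the median of the other 4, split by side (plain bars high, hatched bars low), for the 331 variable genes (red) and all 11254 ranked genes (grey). Luminal replicate 4 is high for 38.1% of variable genes and 16.1% of all genes, and low for 7.55% and 20.1%.

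Genes were then grouped by the full order of the 5 libraries, of which 120 are possible. The most common order among variable genes ran 4, 2, 5, 3, 1 from high to low and held 39 genes (11.8%, all genes 3.91%). For the 36 with a length, exon length ran from 0.383 to 7.37 kb with a median of 1.42 kb, against 4.61 kb for all ranked genes. Of the 39, 36 were also highest in basal replicate 4, as were 73.6% of all 440 genes with this order. Atp5e, a subunit of mitochondrial ATP synthase, stood at 168, 387, 220, 1230 and 243 CPM. Rpl37a, of the large ribosomal subunit, stood at 216, 452, 267, 1183 and 307 CPM. Romo1, a small mitochondrial membrane protein, stood at 30.7, 55.2, 42.4, 134 and 49.0 CPM. These 3 genes were chosen after their values were seen, as were the genes named below only for their order.

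Another set high in luminal replicate 4 had a longer median. The order 4, 1, 5, 2, 3 held 21 genes (6.34%, all genes 0.97%) with a median exon length of 7.77 kb (1.997 to 19.98 kb in the 19 with a length) and a median span on the genome of 191 kb, against 24 kb for all ranked genes. It holds Jarid2, a partner of Polycomb complex PRC2, at 244, 148, 95.4, 1038 and 205 CPM, and Peak1, a pseudokinase, at 215, 126, 87.4, 901 and 174 CPM. Kcnip1, Zfp791, Tmtc2, Il31ra, Mir6236 and D130009I18Rik have the same order. The origin of the reads counted for the genes of this order was not tested, so the values need not be levels of their transcripts. Of these 21 genes, 14 were highest in basal replicate 4, as were 54.1% of all 109 genes with this order. By their orders both sets share the highest library, while the lowest was luminal replicate 1 for the 39 genes and luminal replicate 3 for the 21. With the trend of level on exon length taken out of each library, 317 genes passed the limit, 248 of them among the 331, and 97 were high in luminal replicate 4.

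The order 1, 5, 4, 3, 2 held 14 variable genes (4.23%, all genes 1.82%). Pgr (chr9:8898900-8968611), the progesterone receptor, stood at 611, 85.8, 248, 253 and 426 CPM. Hp, or haptoglobin, stood at 2206, 165, 706, 1157 and 1641 CPM. Cd14, a co-receptor for bacterial lipopolysaccharide, stood at 2059, 461, 482, 487 and 1183 CPM. The ratio of the highest to the lowest library was 7.11 for Pgr, 13.4 for Hp and 4.47 for Cd14, with luminal replicates 1 and 5 highest in all 3. Muc1, a membrane mucin, and Fzd10, a Wnt receptor, had the same order at lower levels, as did Ptpn5, Tmem86a, Alox15, Anxa8, Chst8, Rhoj and Tmem163. The reverse order, 2, 3, 4, 5, 1, held 6 variable genes (1.81%, all genes 1.28%), among them Itih2 and Cxcr4, a chemokine receptor.

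Neighbouring genes shared an order in a few cases. Among 24 pairs of variable genes that lie within 100 kb of each other without overlap, 2 pairs had the same order, as did 1.84% of 19653 such pairs of all genes. Both pairs belong to the order of Pgr. Tmem86a and Ptpn5 lie 23019 bases apart on chromosome 7, and Zbtb8os and Zbtb8a lie 3761 bases apart on chromosome 4. Zbtb8a stood at 215, 39.9, 87.4, 123 and 199 CPM and Zbtb8os at 95.4, 26.7, 43.9, 70.7 and 86.6 CPM.

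Sequences before a start of 3 genes of this order are shown because the genes moved together across the 5 libraries. They are the 250 bases before a start given by RefSeq, assembly GRCm38.p6. For Pgr and Ptpn5 this start lies inside the gene's full span, so that the window does too, and Ptpn5 has another start whose sequence is not shown. The Pgr window is chr9:8899583-8899832 (plus strand), the Tmem86a window chr7:47050390-47050639 (plus strand) and the Ptpn5 window chr7:47133685-47133934 (minus strand).
Pgr: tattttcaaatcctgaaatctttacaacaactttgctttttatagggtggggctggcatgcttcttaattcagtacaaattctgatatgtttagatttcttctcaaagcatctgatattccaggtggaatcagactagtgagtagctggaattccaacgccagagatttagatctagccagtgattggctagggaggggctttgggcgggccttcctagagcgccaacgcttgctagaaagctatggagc
Tmem86a: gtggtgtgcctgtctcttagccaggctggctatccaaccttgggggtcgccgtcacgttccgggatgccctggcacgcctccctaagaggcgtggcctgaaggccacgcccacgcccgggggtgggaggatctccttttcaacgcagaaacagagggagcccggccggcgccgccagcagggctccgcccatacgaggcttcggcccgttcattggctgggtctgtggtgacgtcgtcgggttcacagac
Ptpn5: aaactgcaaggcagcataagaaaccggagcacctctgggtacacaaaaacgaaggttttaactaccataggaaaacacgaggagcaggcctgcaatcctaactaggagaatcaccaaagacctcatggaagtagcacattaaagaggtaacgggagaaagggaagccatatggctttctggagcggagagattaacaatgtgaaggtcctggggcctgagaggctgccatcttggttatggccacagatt
The windows of 250 bases before and 50 bases after each start were searched on both strands for 5 motifs, none of which contains another: TTCNNNGAA (GAS, bound by STAT factors), CACGTG (the palindromic E-box bound by clock and other helix-loop-helix factors), AGATAA (bound by the GATA family), TGACGTCA (CRE, bound by CREB) and ACCGGAAG (bound by the ETS family). In the 11 of 14 genes with this order that have an entry, 0 held any of them, so these letters are not in these windows. Over all 27025 genes with an entry, the shares were 9.55% for GAS, 8.09% for E-box, 12.7% for GATA, 2.03% for CRE and 2.60% for ETS. Over the 8998 of them with at least 5 CPM in luminal cells, they were 8.07%, 12.2%, 7.26%, 3.62% and 5.52% in the same order.

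Of 4 other genes whose windows were looked at singly, Krt18 and Elf5 held none of the motifs, and Ciart and Areg, whose libraries stood apart, held some. Ciart, a repressor of the circadian clock that overlaps C920021L13Rik, stood at 3.25, 13.0, 13.5, 59.5 and 7.42 CPM. Its window (chr3:95882229-95882478, minus strand) holds 3 E-boxes, at -116, -58 and -44 from the start, in capitals here. Areg, or amphiregulin, an EGF receptor ligand of hormone-sensing cells, stood at 55.7, 161, 83.6, 67.2 and 62.7 CPM, with luminal replicate 2 highest and luminal replicate 1 lowest, the reverse of the order of Pgr. Its window (chr5:91139349-91139598, plus strand) holds a CRE at -61, in capitals.
Ciart: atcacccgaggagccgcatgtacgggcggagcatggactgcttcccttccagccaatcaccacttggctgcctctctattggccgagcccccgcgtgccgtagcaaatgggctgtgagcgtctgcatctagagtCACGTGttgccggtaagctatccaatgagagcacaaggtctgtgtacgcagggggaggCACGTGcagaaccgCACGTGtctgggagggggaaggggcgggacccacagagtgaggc
Areg: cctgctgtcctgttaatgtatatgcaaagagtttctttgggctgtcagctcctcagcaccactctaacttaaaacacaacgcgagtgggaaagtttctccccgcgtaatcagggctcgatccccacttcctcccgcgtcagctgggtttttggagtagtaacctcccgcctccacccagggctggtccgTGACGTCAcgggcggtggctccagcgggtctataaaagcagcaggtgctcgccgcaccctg
A match is a description and not a binding site. Among the 242 variable genes with an entry, an E-box stands in 9.50% and a CRE in 4.13%, beside the shares of all genes given before. Of other clock genes, chosen after their values were seen, Dbp stood at 213, 282, 286, 457 and 287 CPM, Nr1d1 at 481, 820, 791, 927 and 870 CPM and Per1 at 129, 307, 227, 339 and 190 CPM. Luminal replicate 4 was highest and luminal replicate 1 lowest for all 3, as for Ciart, but none of them reached 4 times the trend. Luminal replicate 4 was also the highest library for 26.4% of all ranked genes. Other clock genes are not given here, so no shared movement of the clock is read from these 3.

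Genes low in luminal replicate 5 included RNAs of the X chromosome. Xist, the RNA that coats the inactive X chromosome and overlaps its antisense gene Tsix, stood at 241, 967, 949, 781 and 233 CPM. Firre, an X-linked long non-coding RNA, stood at 20.3, 68.1, 86.2, 50.8 and 18.9 CPM. Ogt, the X-linked transferase of O-linked N-acetylglucosamine, stood at 58.6, 217, 245, 166 and 46.9 CPM. In all 3 luminal replicates 1 and 5 were the lowest pair, the inverse of the pair that was highest for Cd14 and Pgr. Ccnl2, a cyclin of pre-mRNA splicing that is not X-linked, had the same order as Firre and Ogt. That order held 10 variable genes (3.02%, all genes 1.32%). The share of X-linked genes among them is not given here, so no pattern of the X chromosome is read from these genes.

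Members of gene lists were then read for how they vary and differ. The luminal identity list (15 genes) was higher in luminal cells for 15 of 15, with a median log2 difference of 3.22 against 0.05 over all 14609 genes tested, of which 33.6% were higher and 31.2% lower. Its summed levels were 21878, 22134, 18523, 24875 and 24246 CPM, and Muc1 was its 1 variable gene. The hormone-sensing list (16 genes) had 15 higher and 1 lower, Wnt5a, a non-canonical Wnt ligand, with a median of 6.20. Its summed levels were 4173, 3220, 3251, 4175 and 4424 CPM. Within it the receptors differed. Esr1, the oestrogen receptor, stood at 101, 106, 112, 85.5 and 108 CPM and had 0.18 times the trend, whereas Pgr had 6.34 times.

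The other hormone-sensing genes did not follow 1 order. Foxa1, the pioneer factor of the oestrogen receptor, stood at 343, 262, 358, 198 and 339 CPM. Cited1 stood at 66.2, 204, 74.1, 198 and 110 CPM, high in luminal replicates 2 and 4. Fxyd2, a regulator of the sodium pump, stood at 103.6, 100.1, 102, 363 and 211 CPM. Greb1, an oestrogen-responsive gene, stood at 16.0, 3.68, 15.1, 4.35 and 3.42 CPM, high in luminal replicates 1 and 3. Tnfsf11, or RANKL, the progesterone-induced paracrine ligand, stood at 8.50, 1.58, 4.66, 8.39 and 8.05 CPM, lowest in luminal replicate 2. Of the 16, 5 were variable (Pgr, Cited1, Calca, Fxyd2 and Greb1), where 2.94% of all ranked genes were, and each had another order of libraries or shared it with 1 other, Calca with Fxyd2.

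The progenitor and alveolar list (16 genes) had 10 higher, 3 lower and 3 not passed, with a median of 3.0 (all genes 33.6% higher and 31.2% lower). Its lower members were Slpi, Sox10 and Hey1. Its summed level was uneven, at 11979, 4621, 4749, 5621 and 9730 CPM, where basal libraries held 3814 to 5453 CPM. Ltf, or lactoferrin, stood at 2552, 625, 969, 1105 and 2280 CPM, and Trf, or transferrin, at 1767, 403, 361, 496 and 817 CPM. Csn3, or kappa-casein, stood at 1196, 413, 537, 425 and 882 CPM, and Aldh1a3, an aldehyde dehydrogenase of luminal progenitors, at 420, 210, 196, 170 and 463 CPM. Luminal replicates 1 and 5 were the highest pair in all of these. That pair was highest for 12 of the 16 members (75%) and for 21.7% of all ranked genes. Slpi, a protease inhibitor of secretions, was an exception at 47.2, 45.1, 25.7, 120 and 91.6 CPM, with a basal mean of 2245 CPM. Its highest pair, luminal replicates 4 and 5, was also that of the basal markers Krt5, Krt14 and Krt17.

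The study's own gene sets, which came from other luminal cells sorted on c-Kit, were read in the same way. All 207 genes of its luminal progenitor set and 314 of the 318 genes of its luminal mature set were in the table, each at 5 CPM or more. The progenitor set summed to 42961, 24059, 23298, 24328 and 35744 CPM, and luminal replicates 1 and 5 were the highest pair for 126 members (60.9%, all genes 21.7%). The mature set summed to 153349, 155991, 138289, 183428 and 169089 CPM, and that pair was highest for 66 of the 314, near the share of all genes. Luminal replicate 4 was the highest library for 108 of the 314 and luminal replicate 5 for 75 (all genes 26.4% and 16.9%). Variable genes made up 9.18% of the progenitor set, 19 of 207, and 16 of the 314 of the mature set, where 2.94% of all ranked genes were variable. Against basal cells, 90 of the progenitor set were higher and 63 lower (median 0.28), and 200 of the mature set were higher and 55 lower (median 0.90), where 33.6% of all genes were higher and 31.2% lower. Depth, length deviation and the share of other cells differ between these libraries as given above, and their part in these values was not tested.

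**Figure D5:**
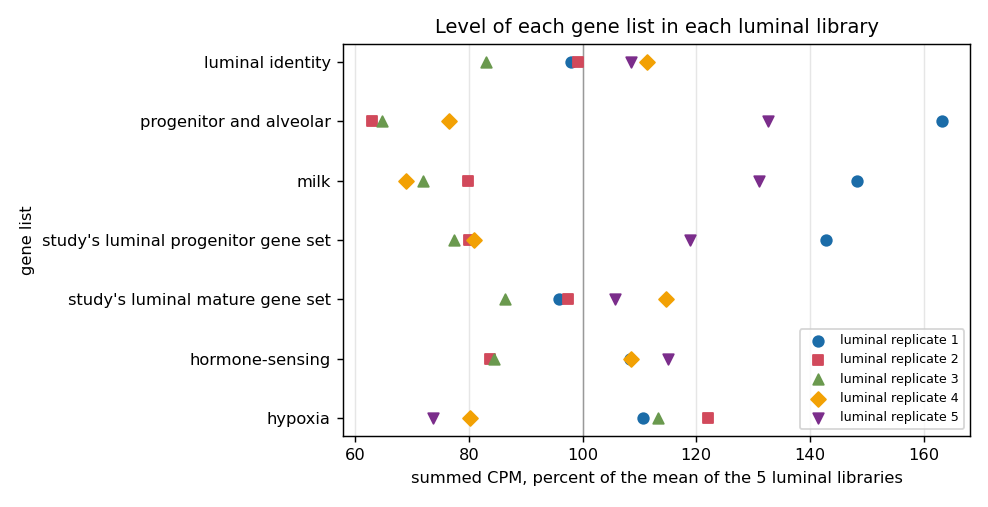
Summed CPM of 7 gene lists in each luminal library as percent of the mean of the 5 (the progenitor and milk lists share Csn3 and Mfge8). Luminal replicates 1 and 5 lie above 100% and the other 3 below it for the progenitor, milk and study progenitor lists, while for hypoxia luminal replicates 4 and 5 are lowest.

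Milk genes differed widely in level. Of 13 in the table, 5 passed the filter on low counts, and of those 3 were higher (Csn3, Btn1a1 and Mfge8), 1 lower (Plin2, of lipid droplets) and 1 not passed (Xdh), where 33.6% of all genes were higher and 31.2% lower. Csn3 and Mfge8, which hold most of the summed level, also belong to the progenitor and alveolar list, so the sums of these lists are not independent. Wap and Glycam1 had no count in any luminal library, and Csn2, or beta-casein, reached at most 0.38 CPM, whereas Csn3 was far higher at the levels given above. Btn1a1, or butyrophilin, stood at 92.0, 29.8, 28.1, 33.8 and 75 CPM. Xdh, or xanthine dehydrogenase, which with butyrophilin coats milk fat globules, stood at 203, 70.3, 73.7, 68.2 and 103 CPM, highest in luminal replicate 1. The call of Plin2 was lost without luminal replicate 3, 4 or 5, without basal replicate 2, 3 or 4, on library totals and with the replicate block.

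Transcription factors differed in direction. Of 26 on the list, 17 were higher, 6 lower and 3 not passed (median 1.16), where 33.6% of all genes were higher and 31.2% lower. Gata3, the GATA factor of luminal fate, stood at 529, 450, 504, 608 and 478 CPM. Its log2 difference from basal cells was 1.39 ± 0.14 (SE, edgeR adjusted p = 7.03e-07). Trps1, a GATA-type repressor, stood at 190, 136, 131, 178 and 187 CPM and also differed by 1.39 ± 0.19 (SE, edgeR adjusted p = 1.64e-05). Both were far under the limit for variable genes, at 0.18 and 0.51 times the trend. The lower members included Tfap2c, at 46.6 CPM against 1270 CPM in basal cells, and Cebpb, at 306 and 916 CPM. Variable members were Pgr and Stat5a, the factor downstream of the prolactin receptor (7.69%, all genes 2.94%), and Stat5a stood at 314, 75.5, 160, 132 and 187 CPM.

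Genes that respond to tissue handling and stress split by kind. Immediate-early genes, such as Fos and Jun, were lower in luminal than in basal cells for 14 of 17 and higher for 2, Klf6 and Socs3 (median -1.10), where 31.2% of all genes were lower and 33.6% higher. Without basal replicate 3 only 1 member was called higher. Heat shock genes were higher for 11 of 12 (median 1.29). Hspa1a and Hspa1b, near-identical copies, stood at 1136 to 2123 and 1146 to 2108 CPM. Hypoxia-induced genes were lower for 10 of 13 and higher for 0 (median -2.78). Vegfa, the vascular growth factor, stood at 379, 757, 770, 404 and 217 CPM in luminal libraries. Adm, or adrenomedullin, the list's one variable gene, stood at 39.9, 99.6, 86.9, 30.2 and 25.3 CPM, and both were highest in luminal replicates 2 and 3.

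Proliferation and immune genes were counted in the same way. Of 27 proliferation genes, 23 passed the filter, 9 of them higher, 1 lower (Pcna) and 13 not passed (median 0.62). The number higher was near the 33.6% of all genes. Mki67, the marker of cycling cells, stood at 2.06, 12.0, 2.63, 2.36 and 3.61 CPM. It was highest in luminal replicate 2, without which only 5 of the list were called higher. The call of Pcna was lost without luminal replicate 1, 2 or 3 or basal replicate 4 or 5. Interferon and antigen presentation genes (27) were higher for 11, lower for 10 and not passed for 6 (median -0.14), near the 33.6% and 31.2% of all genes. Its class I members H2-D1, H2-K1 and B2m were higher, with log2 differences of 0.81 ± 0.19, 0.52 ± 0.18 and 0.79 ± 0.19 (SE, edgeR adjusted p = 0.00158, 0.0214 and 0.00199), and 0 of the 25 with at least 5 CPM were variable, where 2.94% of all ranked genes were. Of 4 tested class II genes, 2 were lower, Cd74 and H2-Ab1.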

How the data were processed

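The deposited file, made by the authors, holds whole-number counts of reads for each gene (Entrez identifiers), not normalized, in 5 luminal and 5 basal libraries. Per the labels, libraries were made from total RNA with the NEBNext Ultra II kit, and the submitters' processing notes name cutadapt 4.2, Bowtie2 2.3.5.1 and the builds mm10 and hg19, without a role. The study describes poly(A) selection and single-end reads aligned to mm10 at default settings for fewer replicates than are held here, so these steps were assumed. The counting tool and its use of strand are not given in the sources used here, so genes that overlap or have near-identical copies are uncertain. Bowtie2 does not align across splice junctions.

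Symbols and coordinates came from RefSeq GRCm38.p6 (24570 of 24594 genes matched) and exon lengths from GENCODE M21 (86.8%). The 2 cell types were compared in edgeR 4.0.16 (R 4.3.3, limma 3.58.1), using filterByExpr, TMM and the quasi-likelihood test, with Benjamini-Hochberg adjustment over 14609 genes and calls at an adjusted p under 0.05. SE is of the log2 difference. Dispersions were estimated on the 5 luminal libraries with no prior and divided by edgeR's trend. That ranking needs about 10 counts in each luminal library, which left out 5 genes above 5 CPM: Aoc1, Rap2a, Sbp, Olfm4 and Dscam. Per-gene orders and the library apart used log2(CPM + 1). DESeq2 1.42.0, other scalings and filters, a replicate block, other limits, an offset for exon length (added after seeing the data) and leaving out each library were tried. Scripts were tested on simulated data.

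Members and gene lists were chosen with earlier results of these data known. Named genes were the 6 markers and list members, the 20 most abundant by CPM and per kilobase, the 25 highest with 3 basal counts or fewer, and the 30 most variable. Any other gene was named after its values were seen. In such cases (Slc5a5, Fgb, Smim22 and those at the limits of the dispersion ratio) the limit itself chose them. The study's methods also list CD31, CD45 and TER-119 antibodies, for cells of other lineages. Values of a few genes that the rule takes in are not reported here.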

Additional observations from a re-analysis of the deposited data

Results flagged for a closer look

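In 5 libraries, a library was singled out where its gap to the nearest other library, as a share of the whole range, exceeded Dixon's limit of 0.71, which chance gives in about 1 of 20 groups. Of 127 quantities examined, 25 passed, 20 of them high in luminal replicate 4, 3 in luminal replicate 1 and 2 in luminal replicate 2. Of the 25, 20 were among the 30 most variable genes, which were chosen for their spread among the same libraries.

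Luminal replicate 1 held 6811 CPM of Gpx3 (other libraries 1841 to 2588), 76.5 CPM of Col6a3 (1.37 to 16.1) and 203 CPM of Xdh (68.2 to 103). Luminal replicate 2 held 82.1 CPM of Itih2 (4.06 to 23.2) and 161 CPM of Areg (55.7 to 83.6).

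Luminal replicate 4 held 24789 CPM of the gene 100861531 (other libraries 1692 to 3254) and 2003 CPM of Ly6d (999 to 1192). It held 45.8 CPM of 9530014B07Rik, 51.8 CPM of Gm36738, 36.4 CPM of Saa3, 59.5 CPM of Ciart, 66.1 CPM of C920021L13Rik and 44.4 CPM of Col6a6, where no other library passed 19.8 CPM. It held 720 CPM of Gnb1l, 346 CPM of D130009I18Rik, 84.5 CPM of Kcnip1, 138 CPM of Zfp791, 171 CPM of Tmtc2 and 364 CPM of Il31ra, where the others reached at most 93.5 CPM. It also held 855 CPM of Mir6236, 1315 CPM of Lars2, 901 CPM of Peak1 and 1038 CPM of Jarid2, where the others reached at most 277 CPM, and 2152 and 2162 CPM of the overlapping Filip1l and Cmss1, where they reached at most 513 CPM.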

How the results depend on the processing

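All 267 fold changes recomputed for 17 named genes kept their direction and their side of the threshold. Across alternatives 4178 to 5705 genes were higher and 3705 to 5089 lower in luminal cells. Genes with 3 basal counts or fewer numbered 181, but 51 with a limit of 0 counts, 467 with a limit of 10 and 56 at a minimum of 5 CPM. Variable genes numbered 331, but 60 at 8 times the trend. The 20 most counted genes held 8.40% of luminal counts, 7.86% to 8.75% when 1 luminal library was left out, and the 50 most counted held 14.3% (exact permutation p = 0.135). With a filter of 10 counts in every library, 6 progenitor, 7 hormone-sensing and 4 proliferation genes were higher, since fewer genes were tested. Without a filter 5 milk genes were higher, 3 milk genes lower and 1 immediate-early gene higher. With DESeq2 2 milk genes were lower. On library totals 0 milk and 0 proliferation genes were lower. Leaving out each library gave 1 to 2 immediate-early genes higher, 5 to 9 proliferation genes higher, 0 to 1 milk genes lower and 0 to 1 proliferation genes lower. Of the list counts 361 of 384 stayed within 1.5 times, and the cause of the other changes was not tested. Ranks moved in 41 of 54 cases when taken per length. Depth limits the genes called uncounted: thinning the basal libraries to the smallest total gave 208.

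A replicate block in the fit gave 4740 genes higher and 4539 lower, and left 0 milk genes lower. Deviations of same-numbered libraries correlated across genes at -0.13, 0.11, -0.07, 0.25 and 0.06, and 2 of 5 luminal libraries matched their own number best, so the samples were taken to share only a number.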

Other observations

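Genes too uneven to be ranked were left out of the variation list because a luminal library held fewer than about 10 counts of them. Olfm4, a secreted glycoprotein of mucosal epithelia, stood at 12.8, 0.05, 0.74, 2.74 and 14.1 CPM, with luminal replicates 1 and 5 as its highest pair. Sbp, which encodes a spermine-binding protein, stood at 0.19, 1.42, 4.47, 23.5 and 1.33 CPM and had no count in any basal library. Rap2a, a small GTPase, stood at 9.24, 8.05, 8.94, 0.53 and 9.38 CPM, so that luminal replicate 4 was the low one, while basal libraries held a mean of 27.1 CPM. Dscam, a cell adhesion molecule of neurons, stood at 5.06, 0.32, 5.76, 10.9 and 3.17 CPM.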
